A study of Homo sapiens with 12 samples.

Results

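Metallothioneins, their zinc-sensing transcription factor and a zinc exporter of the cell surface were followed across all libraries of an RNA sequencing study of HEK293T cells. The 8 genes, MT1E, MT1F, MT1G, MT1M, MT1X, MT2A, MTF1 and SLC30A1, were found by their Ensembl identifiers among the 60604 gene identifiers of the count table, and 5 of the 8 passed the filter on low counts that left 19662 genes for testing. HEK293T is a line of human embryonic kidney cells that also produces a viral large T antigen. All 3 groups were cells of this line, and the transfected groups were harvested 48 h after transfection with Lipofectamine 2000. The first group received dCas9-VP160, a Cas9 that cannot cut DNA, fused to a transcriptional activator of viral origin, with 6 guide RNAs for the promoter of CD34. The second received dCas9-VP160 without guides. The labels spell the vector sgRNA-dCas9-VP160-P2A-EGF and give a total of 5.4 pmol of plasmid for a 100 mm dish. The third group received no plasmid, and the labels call it non-transfected in 1 place and treated with the transfection reagents alone in another. No group received a plasmid that lacked dCas9-VP160, so effects of the plasmid and of the protein cannot be told apart. Each group was assayed in 2 experiments, each on its own batch of cells and each with 2 technical replicates, which makes 4 libraries per group and 12 in all. The comparisons address which genes other than the guide target differed in cells given the activator, and which differed once guides were added.

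Metallothioneins are small cysteine-rich proteins that bind zinc, copper and cadmium and buffer the free zinc of the cell. When zinc in the cell rises, the zinc finger protein MTF1 enters the nucleus, binds metal response elements in the promoters of metallothionein genes and of SLC30A1, and raises their transcription. SLC30A1, also called ZnT1, carries zinc out of the cell across the plasma membrane, and metallothioneins are also known to be induced by glucocorticoids and by several kinds of stress.

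Depth ranged between 6750035 and 11932244 gene counts per library, and each library held 26115 to 28418 genes with at least 1 count. CD34, the target of the guides, had 664 to 942 counts per library with dCas9-VP160 and guides, 7 to 10 with dCas9-VP160 alone and 13 to 28 without plasmid. Of 7 genes known to be expressed in HEK293 cells, all were measured and tested. With dCas9-VP160 alone against no plasmid, 3 were called higher and 3 lower, where 26.6% of all genes were called higher and 24.6% lower. NEFL, VIM, KRT8 and KRT18 had at least 1884 counts in every library. PAX2 had only 1 to 12 counts per library, NEFM 5 to 31 and LHX1 16 to 63. KRT8 was at 846 ± 26.5, 855 ± 45.6 and 741 ± 43.9 CPM in cells with guides, with dCas9-VP160 alone and without plasmid (SD, n = 2 experiments). Of 10 markers of other cell types, 9 had at most 8 counts in every library, HBB and INS had 0 in all, and the remaining one, COL1A1, averaged 25.7 ± 3.44, 25.1 ± 5.46 and 28.4 ± 2.12 CPM in the same order of groups and was called lower with dCas9-VP160 alone against no plasmid (log2 -0.19, edgeR adjusted p = 0.0474). In libraries of whole cultures, fewer cells of a type and less RNA per cell cannot be told apart. CPM are counts scaled to a common library total after TMM normalisation, errors are the SD of 2 experiments after the technical replicates were summed, and called means an adjusted p under 0.05 in the edgeR quasi-likelihood test over all 19662 genes. Technical replicates show no spread between cultures, so the p-values rest on 2 batches of 1 cell line.

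The 6 metallothionein genes lie within 75998 bases of chromosome 16 and encode nearly the same message, and the coding sequences are shown because they bear on how well reads can be assigned to 1 gene. In the GENCODE v29 annotation of GRCh38 each has 3 exons and 186 coding bases. Lower case marks bases shared with MT2A at the same position and capitals mark bases that differ from MT2A.
MT2A: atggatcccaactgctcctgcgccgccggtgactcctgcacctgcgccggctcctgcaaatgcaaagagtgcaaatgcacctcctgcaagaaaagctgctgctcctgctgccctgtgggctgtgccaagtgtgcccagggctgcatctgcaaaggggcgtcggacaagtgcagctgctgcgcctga
MT1X: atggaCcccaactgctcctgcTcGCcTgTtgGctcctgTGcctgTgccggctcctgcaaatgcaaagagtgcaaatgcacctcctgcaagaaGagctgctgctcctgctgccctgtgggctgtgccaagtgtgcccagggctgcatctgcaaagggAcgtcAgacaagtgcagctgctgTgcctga
MT1F: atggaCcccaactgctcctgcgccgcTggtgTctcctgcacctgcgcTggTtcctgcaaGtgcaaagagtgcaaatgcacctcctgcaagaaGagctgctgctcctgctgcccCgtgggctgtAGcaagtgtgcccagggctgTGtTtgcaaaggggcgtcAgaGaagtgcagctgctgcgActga
MT1E: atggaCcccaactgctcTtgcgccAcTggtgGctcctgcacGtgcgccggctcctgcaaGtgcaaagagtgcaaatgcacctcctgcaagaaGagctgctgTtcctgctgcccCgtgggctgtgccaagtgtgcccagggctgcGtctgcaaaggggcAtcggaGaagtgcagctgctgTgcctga
MT1G: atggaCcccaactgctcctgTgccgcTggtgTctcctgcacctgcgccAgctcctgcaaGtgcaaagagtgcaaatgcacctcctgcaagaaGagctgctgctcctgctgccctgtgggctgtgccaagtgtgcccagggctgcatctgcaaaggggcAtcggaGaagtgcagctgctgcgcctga
MT1M: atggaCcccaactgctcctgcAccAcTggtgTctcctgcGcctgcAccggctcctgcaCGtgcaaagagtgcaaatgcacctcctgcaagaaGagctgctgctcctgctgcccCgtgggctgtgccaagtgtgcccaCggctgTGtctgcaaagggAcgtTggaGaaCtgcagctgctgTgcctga
The differences from MT2A numbered 9 in MT1G, 14 in MT1E, 14 in MT1X, 16 in MT1F and 19 in MT1M, so identity to MT2A lay between 89.8% and 95.2%. Across whole transcripts, 3.02% of the 50-base words of MT2A, 1.22% of those of MT1F and 18.3% of those of MT1X also occurred in transcripts of other genes, as did 16.5% of those of MT1G, 9.87% of those of MT1M and 7.10% of those of MT1E. Most of the shared words of MT1X, 273 of 341, belonged to AC026461.1, an annotated gene that overlaps MT1X on the same strand and had 0 counts in every library. SLC30A1 shared no 50-base word with another gene, and 0.891% of the words of MTF1 were shared. The program that assigned reads to genes was not stated in the sources used, so the values of the metallothioneins are uncertain where reads fall in shared stretches.

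The promoters are shown because MTF1 is known to act through metal response elements. Each is the 250 bases before the RefSeq start of the gene in GRCh38.p14, read along the gene from 5′ to 3′. Capitals mark the core letters TGCACNC and TGCGCNC, searched on both strands, with N for any base. A promoter entry was found for 4 of the 8 genes. MT2A lies at chr16:56608334-56608583 on the plus strand, MT1X at chr16:56682220-56682469 on the plus strand, SLC30A1 at chr1:211579162-211579411 on the minus strand and MTF1 at chr1:37859593-37859842 on the minus strand.
MT2A: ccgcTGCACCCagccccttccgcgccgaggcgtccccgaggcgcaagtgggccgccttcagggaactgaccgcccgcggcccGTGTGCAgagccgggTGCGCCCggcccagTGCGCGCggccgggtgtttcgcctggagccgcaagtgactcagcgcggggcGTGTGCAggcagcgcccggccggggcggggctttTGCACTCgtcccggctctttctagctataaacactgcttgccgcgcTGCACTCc
MT1X: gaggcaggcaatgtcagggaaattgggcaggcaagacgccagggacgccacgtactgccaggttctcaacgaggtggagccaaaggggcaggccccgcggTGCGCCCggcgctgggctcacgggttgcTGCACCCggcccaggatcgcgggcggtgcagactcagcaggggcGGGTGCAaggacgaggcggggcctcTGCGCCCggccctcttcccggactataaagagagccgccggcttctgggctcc
SLC30A1: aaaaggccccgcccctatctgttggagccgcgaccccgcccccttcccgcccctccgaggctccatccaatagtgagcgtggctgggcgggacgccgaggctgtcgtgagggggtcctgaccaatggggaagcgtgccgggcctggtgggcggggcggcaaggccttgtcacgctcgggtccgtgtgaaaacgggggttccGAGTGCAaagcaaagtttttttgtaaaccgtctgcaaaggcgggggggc
MTF1: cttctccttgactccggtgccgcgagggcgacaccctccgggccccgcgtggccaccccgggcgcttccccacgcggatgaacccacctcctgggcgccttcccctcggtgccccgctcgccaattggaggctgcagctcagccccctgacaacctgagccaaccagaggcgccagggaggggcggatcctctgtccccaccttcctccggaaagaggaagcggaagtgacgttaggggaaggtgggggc
The MT2A window held 7 matches, with their first base at -246, -168, -153, -139, -88, -54 and -8 from the start, and no match overlapped another. The MT1X window held 4 matches, at -150, -122, -78 and -53. The SLC30A1 window held 1 match, at -49, and the MTF1 window held 0. Of all 35116 RefSeq promoters of this length, 24.8% held at least 1 match, 0.37% at least 4 and 0.12% at least 5. RefSeq and GENCODE place some starts differently: the MT2A window lies inside the GENCODE gene, those of MT1X and MTF1 reach into it, and that of SLC30A1 lies upstream of it. A match describes the letters in a window and is not a measured binding site.

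SLC30A1 (ENSG00000170385, chr1:211571568-211578742, minus strand), the zinc exporter of the plasma membrane, rose in both groups that received dCas9-VP160. Its level was 60.9, 64.7, 53.3 and 59.5 CPM in the 4 libraries with dCas9-VP160 and guides, 61.4, 57.3, 61.7 and 60.9 CPM in those with dCas9-VP160 alone, and 40.9, 41.1, 35.6 and 39.1 CPM in those without plasmid, with experiment 1 before experiment 2. Every library of either transfected group was above every library without plasmid, whereas the libraries of the transfected groups overlapped with each other. The counts behind these levels were 418 to 601, 392 to 731 and 309 to 465 per library in the same order of groups. The means were 59.5 ± 4.97, 60.6 ± 1.01 and 39.2 ± 2.39 CPM (SD, n = 2).

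With dCas9-VP160 alone, SLC30A1 was 0.63 higher on the log2 scale than without plasmid (SE 0.06, edgeR adjusted p = 3.96e-09), a fold of 1.55 with a 95% interval of 1.42 to 1.70. The difference was 0.55 in experiment 1 and 0.71 in experiment 2. With guides the log2 difference against no plasmid was 0.60 (SE 0.06, edgeR adjusted p = 1.07e-08), or 1.52-fold with a 95% interval of 1.38 to 1.66, and it was 0.62 and 0.58 in experiments 1 and 2. These comparisons share their control libraries. Of all genes tested, 10.0% had a log2 fold change at least as high as that of SLC30A1 with dCas9-VP160 alone, and 10.9% with guides. The call held under all 16 other settings of the analysis in each comparison, with log2 fold changes of 0.54 to 0.73 without guides and 0.54 to 0.67 with guides. Between cells with guides and cells with dCas9-VP160 alone the log2 difference was -0.03, with a 95% interval of -0.16 to 0.10 (edgeR adjusted p = 0.835).

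**Figure D1:**
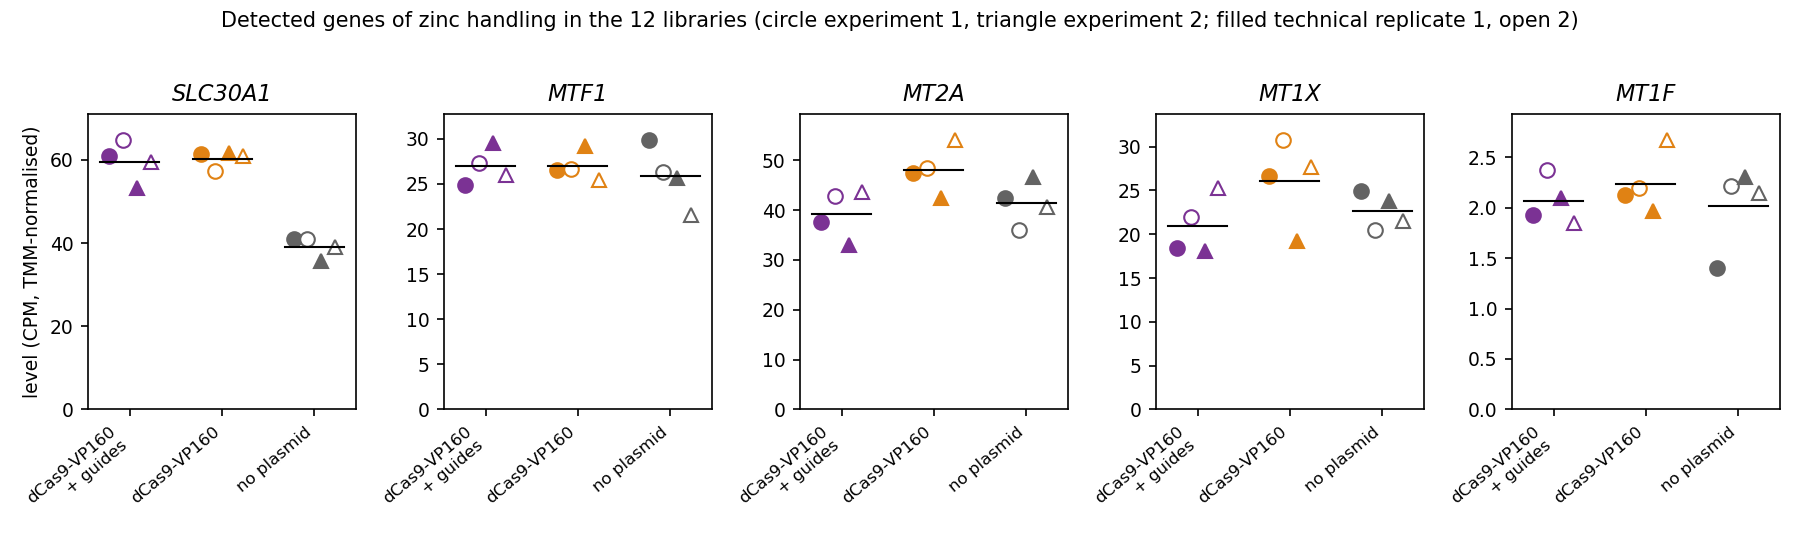
Levels of the 5 tested genes in CPM (vertical axis from 0) in each of the 12 libraries, grouped as dCas9-VP160 with guides, dCas9-VP160 and no plasmid. Circles are experiment 1, triangles experiment 2, filled symbols technical replicate 1, open symbols technical replicate 2, and black lines the mean of 4 libraries. SLC30A1 lies between 53.3 and 64.7 CPM in all 8 transfected libraries and between 35.6 and 41.1 CPM in the 4 without plasmid, while the groups overlap in the other 4 genes.

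MTF1 (ENSG00000188786, chr1:37809567-37859620, minus strand), the zinc-sensing activator of the other members, was measured at 21.6 to 29.8 CPM across the 12 libraries and was called in none of the 3 comparisons. It had 24.9, 27.3, 29.6 and 26.0 CPM with dCas9-VP160 and guides, 26.6, 26.6, 29.2 and 25.5 CPM with dCas9-VP160 alone, and 29.8, 26.3, 25.7 and 21.6 CPM without plasmid. The groups overlapped, and the highest and the lowest library were both without plasmid. The log2 difference from no plasmid was 0.07 with dCas9-VP160 alone (95% interval -0.10 to 0.24, edgeR adjusted p = 0.484) and 0.08 with guides (edgeR adjusted p = 0.437). It was 0.01 between cells with guides and cells with dCas9-VP160 alone (edgeR adjusted p = 0.972). An antisense pseudogene, AL929472.4, overlaps MTF1 and had at most 2 counts in a library. Reads of overlapping genes cannot be told apart because the library kits named in the labels do not mark the strand.

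MT2A (ENSG00000125148, chr16:56608199-56609497, plus strand), a widely expressed metallothionein, had the highest CPM of the 6, before any division by transcript length. It had 37.6, 42.8, 33.0 and 43.6 CPM with dCas9-VP160 and guides, 47.5, 48.4, 42.5 and 53.9 CPM with dCas9-VP160 alone, and 42.3, 36.0, 46.7 and 40.7 CPM without plasmid. The highest libraries were in the group with dCas9-VP160 alone, but each pair of groups overlapped. Means were 39.0 ± 1.98, 48.5 ± 0.797 and 41.0 ± 3.35 CPM (SD, n = 2), from 299 to 648 counts per library. With dCas9-VP160 alone, MT2A was called higher than without plasmid, by 0.24 on the log2 scale (SE 0.07, edgeR adjusted p = 0.00335; 0.31 and 0.18 in experiments 1 and 2). With guides it was called lower than with dCas9-VP160 alone, by -0.31 on the log2 scale (SE 0.07, edgeR adjusted p = 0.00490; -0.25 and -0.38 in experiments 1 and 2). Between cells with guides and cells without plasmid the log2 difference was -0.07, with a 95% interval of -0.21 to 0.08 (edgeR adjusted p = 0.434).

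MT1X (ENSG00000187193, chr16:56682424-56684196, plus strand), a metallothionein of the same zinc-binding type, followed the order of groups of MT2A. It had 18.5, 22.0, 18.1 and 25.3 CPM with dCas9-VP160 and guides, 26.7, 30.7, 19.2 and 27.6 CPM with dCas9-VP160 alone, and 24.9, 20.5, 23.7 and 21.5 CPM without plasmid. Here too the groups overlapped, and 1 library with dCas9-VP160 alone, technical replicate 1 of experiment 2, lay below all 4 without plasmid. Means were 20.8 ± 0.668, 26.2 ± 3.04 and 22.4 ± 0.111 CPM (SD, n = 2) in the same order of groups. The log2 difference from no plasmid was 0.22 with dCas9-VP160 alone (SE 0.08, edgeR adjusted p = 0.0314; 0.34 and 0.10 in experiments 1 and 2), which was called higher. With guides against dCas9-VP160 alone it was -0.33 (SE 0.09, edgeR adjusted p = 0.0183; -0.48 and -0.18 in experiments 1 and 2), which was called lower. With guides against no plasmid it was -0.11, with a 95% interval of -0.29 to 0.07 (edgeR adjusted p = 0.301).

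The calls for MT2A and MT1X were less stable than that for SLC30A1. In the libraries labelled technical replicate 1 alone, the log2 difference between dCas9-VP160 and no plasmid was 0.022 for MT2A (edgeR adjusted p = 0.876) and -0.077 for MT1X (edgeR adjusted p = 0.637), against 0.42 and 0.46 in those labelled technical replicate 2 (edgeR adjusted p = 3.36e-04 and 0.00185). With guides against no plasmid, both genes were called lower in technical replicate 1 alone, by -0.33 for MT2A and -0.41 for MT1X (edgeR adjusted p = 0.00366 and 0.00580). In technical replicate 2 alone the same differences were 0.18 and 0.16 (edgeR adjusted p = 0.114 and 0.285). SLC30A1 gave 0.69 and 0.57 without guides and 0.58 and 0.63 with guides in technical replicates 1 and 2. The number of a technical replicate marks no batch that the labels describe, and what it stands for was not tested. Without the experiment block in the edgeR fit, the calls against no plasmid were lost for MT2A (adjusted p = 0.0884) and MT1X (adjusted p = 0.169), as were the calls of both between cells with guides and dCas9-VP160 alone (adjusted p = 0.528 and 0.578). The log2 differences themselves barely moved without the block, at 0.24 and 0.22 against no plasmid and -0.31 and -0.33 between the transfected groups, and their SE grew to 0.10 for MT2A and 0.11 for MT1X. DESeq2 called neither gene in these comparisons, with adjusted p = 0.0679 and 0.243 for MT2A and MT1X with dCas9-VP160 alone against no plasmid and 0.110 and 0.281 with guides against dCas9-VP160 alone, at log2 differences of 0.24, 0.22, -0.30 and -0.32. Leaving out experiment 1 of the group without plasmid ended the calls against it, at 0.15 for MT2A and 0.16 for MT1X, and leaving out experiment 1 of dCas9-VP160 alone ended that of MT1X, at 0.09. With guides against dCas9-VP160 alone, MT2A was at -0.21 and not called without experiment 2 of the group with guides. MT1X was not called there without experiment 1 of the group with guides, at -0.23, or without experiment 1 of dCas9-VP160 alone, at -0.19.

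**Figure D2:**
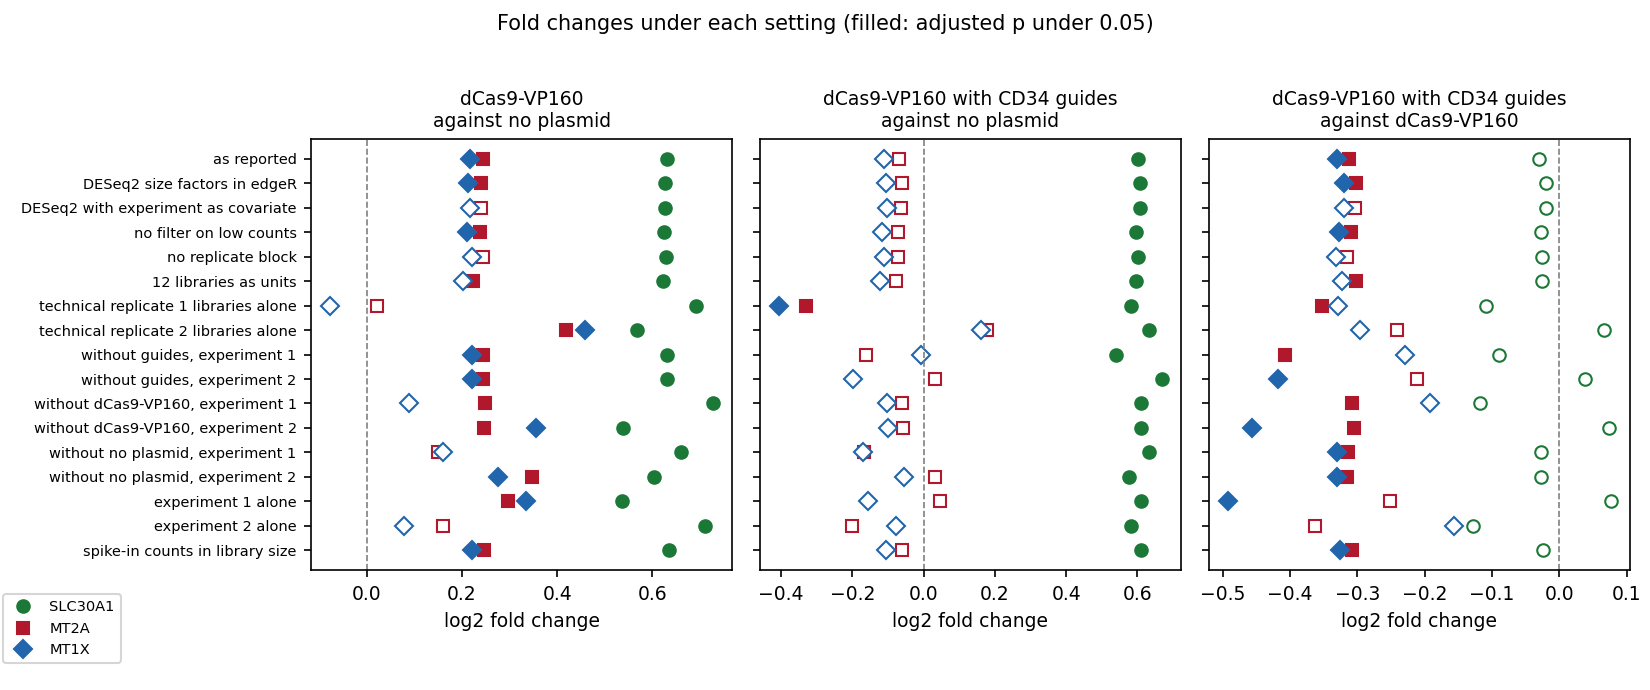
Log2 fold change (horizontal axis) of SLC30A1, MT2A and MT1X as reported and under 16 other settings (rows), with 1 panel per comparison; filled symbols have an adjusted p under 0.05. SLC30A1 stays between 0.54 and 0.73 in the first panel, whereas MT1X lies at -0.077 in technical replicate 1 alone and at 0.46 in technical replicate 2 alone.

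MT1F (ENSG00000198417, chr16:56657694-56660698, plus strand), another metallothionein of the cluster, was near the lower end of what the depth resolves, with 12 to 32 counts per library. It had 1.93, 2.37, 2.10 and 1.85 CPM with dCas9-VP160 and guides, 2.13, 2.19, 1.97 and 2.66 CPM with dCas9-VP160 alone, and 1.40, 2.21, 2.31 and 2.14 CPM without plasmid. The groups overlapped throughout. Its log2 differences were 0.15 with dCas9-VP160 alone against no plasmid (95% interval -0.33 to 0.64, edgeR adjusted p = 0.613), 0.03 with guides against no plasmid (edgeR adjusted p = 0.925) and -0.12 with guides against dCas9-VP160 alone (edgeR adjusted p = 0.831). The interval spans changes of the size seen in MT2A, which were therefore not detectable for MT1F at this depth.

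The other 3 metallothioneins were not detectable at this depth. MT1G (ENSG00000125144, chr16:56666731-56668065, minus strand) and MT1M (ENSG00000205364, chr16:56632233-56633986, plus strand) had 0 counts in all 12 libraries, which allows a level of up to 0.0268 CPM over the 111978664 gene counts (3 counts of the total, for counting error only, and only for reads that the counting program could assign to the gene). MT1E (ENSG00000169715, chr16:56625475-56627112, plus strand) had 1 count, in a library with dCas9-VP160 alone. Within a single library, 0 counts allow up to 0.251 to 0.444 CPM, depending on its depth. Of 15 further metallothionein genes and pseudogenes in the table, 8 had 0 counts in every library, none had more than 5 in any, and none was tested.

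Counted together, the metallothioneins made up 482 to 1012 counts per library, or 52.5 to 84.8 unnormalised CPM. MT2A contributed 59.5% to 66.6% of this sum, MT1X 30.1% to 37.8% and MT1F 2.04% to 3.94%, so that the metallothionein message of these cells came almost wholly from MT2A and MT1X in each group. The log2 ratio of MT1X to MT2A was -0.99 and -0.82 with guides, -0.76 and -1.03 with dCas9-VP160 alone, and -0.79 and -0.94 without plasmid in experiments 1 and 2, and these groups overlapped. The log2 ratio of SLC30A1 to MT2A was 0.64 and 0.57 with guides, 0.32 and 0.32 with dCas9-VP160 alone, and 0.08 and -0.21 without plasmid, in the same order. With technical replicates summed, the exporter was thus highest relative to MT2A with guides and lowest without plasmid in both experiments. In single libraries the ratios of neighbouring groups overlapped. Technical replicate 2 of experiment 2 with guides had SLC30A1 and MT2A at 59.5 and 43.6 CPM. Technical replicate 1 of experiment 2 with dCas9-VP160 alone had 61.7 and 42.5 CPM. Technical replicate 2 there had 60.9 and 53.9 CPM, beside 41.1 and 36.0 CPM in technical replicate 2 of experiment 1 without plasmid. SLC30A1 itself differed by -0.03 between the transfected groups, and the ratio was not tested.

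To compare levels between genes, CPM were divided by transcript length. Per kilobase of the principal transcript the means over the 6 summed libraries were 54.5 CPM for MT2A, 51.4 for MT1X, 9.70 for SLC30A1, 3.33 for MTF1 and 3.08 for MT1F. On this scale the mean of MT2A lay above that of MT1X in each group, and the mean of MTF1 above that of MT1F. These differences between genes were not tested. SLC30A1 lay between these pairs, apart from both, in each group. Per kilobase of all annotated exons, MT2A was at 33.0, MT1X at 13.0, SLC30A1 at 9.70, MTF1 at 3.31 and MT1F at 1.12 CPM, so the distance between MT2A and MT1X depended on the length used.

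Of the 5 genes tested, 3 were called higher and 0 lower with dCas9-VP160 alone against no plasmid, where 26.6% of all genes were called higher and 24.6% lower. With guides against no plasmid 1 was called higher and 0 lower, where 26.7% of all genes were called higher and 25.9% lower. With guides against dCas9-VP160 alone 0 were called higher and 2 lower, where 4.16% of all genes were called higher and 3.41% lower. The counts of 0 came from edgeR, with 0 also at an unadjusted p under 0.05, and DESeq2 gave 0 as well. The median log2 fold change of the 5 genes was 0.22, 0.03 and -0.12 in these comparisons, beside -0.002, -0.016 and -0.004 over all genes tested. The genes whose 4 libraries were all higher than those without plasmid made up 19.4% of all genes with dCas9-VP160 alone and 19.9% with guides, and SLC30A1 was the only tested member among them in either comparison.

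**Figure D3:**
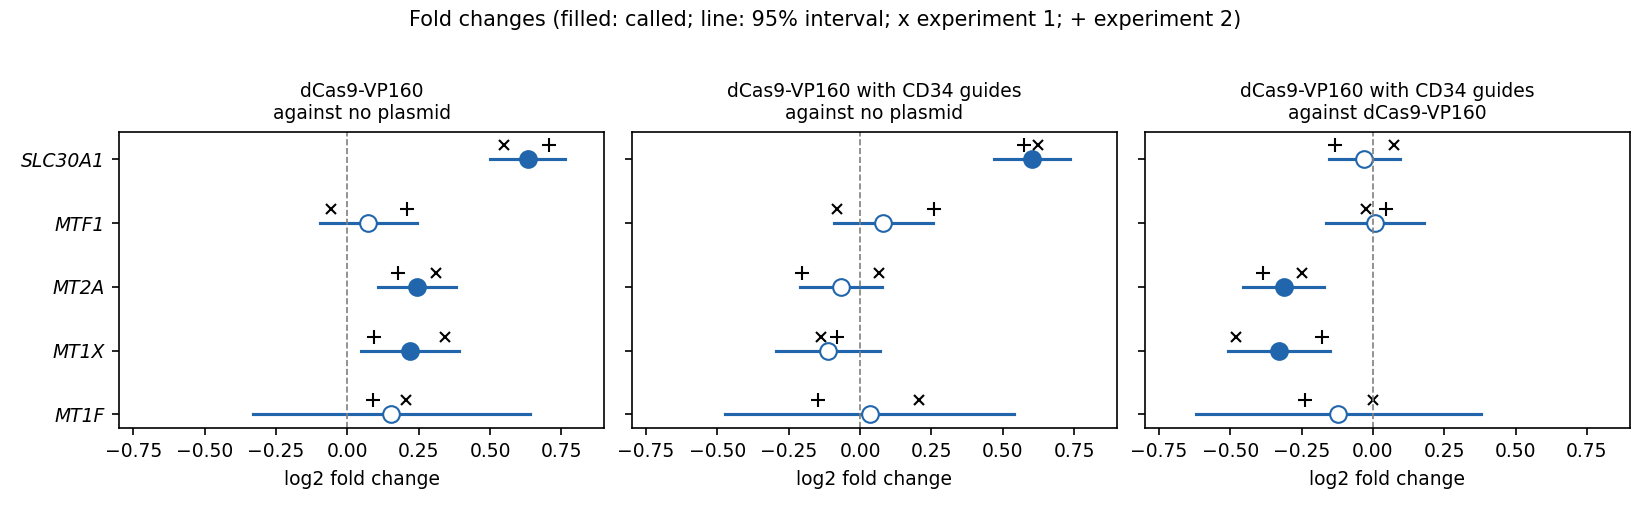
Log2 fold changes of the 5 tested genes (rows) in 3 comparisons (panels). Blue circles are the edgeR estimates, filled where called, with 95% intervals as lines; x and + mark experiments 1 and 2. SLC30A1 is at 0.63 and 0.60 in the comparisons with no plasmid and at -0.03 between the transfected groups, where MT2A and MT1X are at -0.31 and -0.33.

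Experiments 1 and 2 were compared in their responses by an interaction term fitted to the 12 libraries. None of the 5 genes was called in any comparison, and the lowest edgeR adjusted p was 0.985. Of all 19662 genes, 2 were called with dCas9-VP160 alone and 3 with guides against no plasmid, and 0 between the transfected groups. With so few calls among all genes, the lack of a call does not show that the experiments agreed. At an unadjusted p under 0.05 in edgeR, 1 of the 5 genes, MTF1, was found in the comparison of guides with no plasmid and 0 in the other comparisons. DESeq2 was not run on this term.

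Other zinc exporters rose or did not pass the test, and none was called lower. Of 10 further exporter genes, all tested, 5 were called higher and 0 lower with dCas9-VP160 alone, and likewise 5 higher and 0 lower with guides, against no plasmid. Of all genes, 26.6% were called higher and 24.6% lower with dCas9-VP160 alone, and 26.7% and 25.9% with guides. DESeq2 called 2 and 5 of them higher and 0 lower, and at an unadjusted p under 0.05 edgeR too found 0 lower. Their median log2 fold change was 0.09 and 0.20, beside -0.002 and -0.016 over all genes. SLC30A7, which loads zinc into the Golgi, averaged 84.4 ± 6.42 CPM with guides, 80.1 ± 6.93 with dCas9-VP160 alone and 61.9 ± 4.95 without plasmid (SD, n = 2). It rose by 0.37 on the log2 scale with dCas9-VP160 alone (SE 0.05, edgeR adjusted p = 1.07e-06) and by 0.45 with guides (SE 0.05, edgeR adjusted p = 4.95e-08). SLC30A6, which acts with SLC30A5 in the early secretory pathway, rose by 0.14 with dCas9-VP160 alone and 0.23 with guides (edgeR adjusted p = 0.0349 and 0.00109). In experiments 1 and 2 the difference of SLC30A6 was 0.021 and 0.27 with dCas9-VP160 alone and 0.14 and 0.33 with guides. SLC30A9 rose by 0.16 in either (edgeR adjusted p = 0.00206 and 0.00168). SLC30A5 averaged 167 ± 1.68 CPM with guides, 144 ± 0.674 with dCas9-VP160 alone and 139 ± 3.52 without plasmid. It was called higher with guides, by 0.27 against no plasmid (edgeR adjusted p = 6.59e-06) and by 0.22 against dCas9-VP160 alone (edgeR adjusted p = 0.00129), and was 0.05 higher with dCas9-VP160 alone (edgeR adjusted p = 0.392). SLC30A3, a vesicular zinc transporter, was at 0.50 with dCas9-VP160 alone (edgeR adjusted p = 0.00861) and at 0.36 with guides (edgeR adjusted p = 0.0609). SLC30A2, named here after its values were seen, was also called higher, at 1.14 and 1.76 (edgeR adjusted p = 0.0282 and 5.51e-04), from only 2 to 19 counts per library.

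Zinc importers moved in both directions. Of 14 importer genes, 12 were tested, and 3 were called higher and 6 lower with dCas9-VP160 alone, 4 higher and 4 lower with guides, against no plasmid, shares that for the genes called higher lie near the 26.6% and 26.7% of all genes called higher. The shares of all genes called lower were 24.6% and 25.9%. DESeq2 called 2 importers higher and 5 lower with dCas9-VP160 alone, and 3 higher and 2 lower with guides. The median log2 fold change of the 12 was -0.07 and 0.08. SLC39A14, an importer of zinc, iron and manganese at the cell surface, averaged 260 ± 10.3 CPM with guides, 229 ± 4.33 with dCas9-VP160 alone and 146 ± 1.38 without plasmid. It rose by 0.64 with dCas9-VP160 alone (SE 0.04, edgeR adjusted p = 3.28e-13), by 0.83 with guides (SE 0.04, edgeR adjusted p = 1.22e-15), and by 0.19 with guides against dCas9-VP160 alone (edgeR adjusted p = 0.00266). SLC39A10, a plasma membrane zinc importer, averaged 129 ± 1.57, 117 ± 8.46 and 184 ± 11.1 CPM in the same order of groups, and its log2 differences from no plasmid were -0.65 with dCas9-VP160 alone and -0.50 with guides (edgeR adjusted p = 2.26e-12 and 2.32e-10). SLC39A8, an importer of zinc and manganese, was at -0.41 and -0.39 (edgeR adjusted p = 1.11e-07 and 2.94e-07), and SLC39A4, the importer of the intestine, at -0.33 with dCas9-VP160 alone and -0.27 with guides (edgeR adjusted p = 7.89e-04 and 0.00400). SLC39A3 was called higher in both, at 0.26 with dCas9-VP160 alone and 0.31 with guides (edgeR adjusted p = 0.00407 and 9.61e-04). Between cells with guides and dCas9-VP160 alone, 2 importers were called higher, SLC39A14 and SLC39A6, with SLC39A6 at 0.19 (edgeR adjusted p = 0.0372). DESeq2 called 1 importer higher there. No importer was called lower there in edgeR or DESeq2, and 0 were lower at an unadjusted p under 0.05. Of all genes, 4.16% were called higher in that comparison and 3.41% lower.

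**Figure D4:**
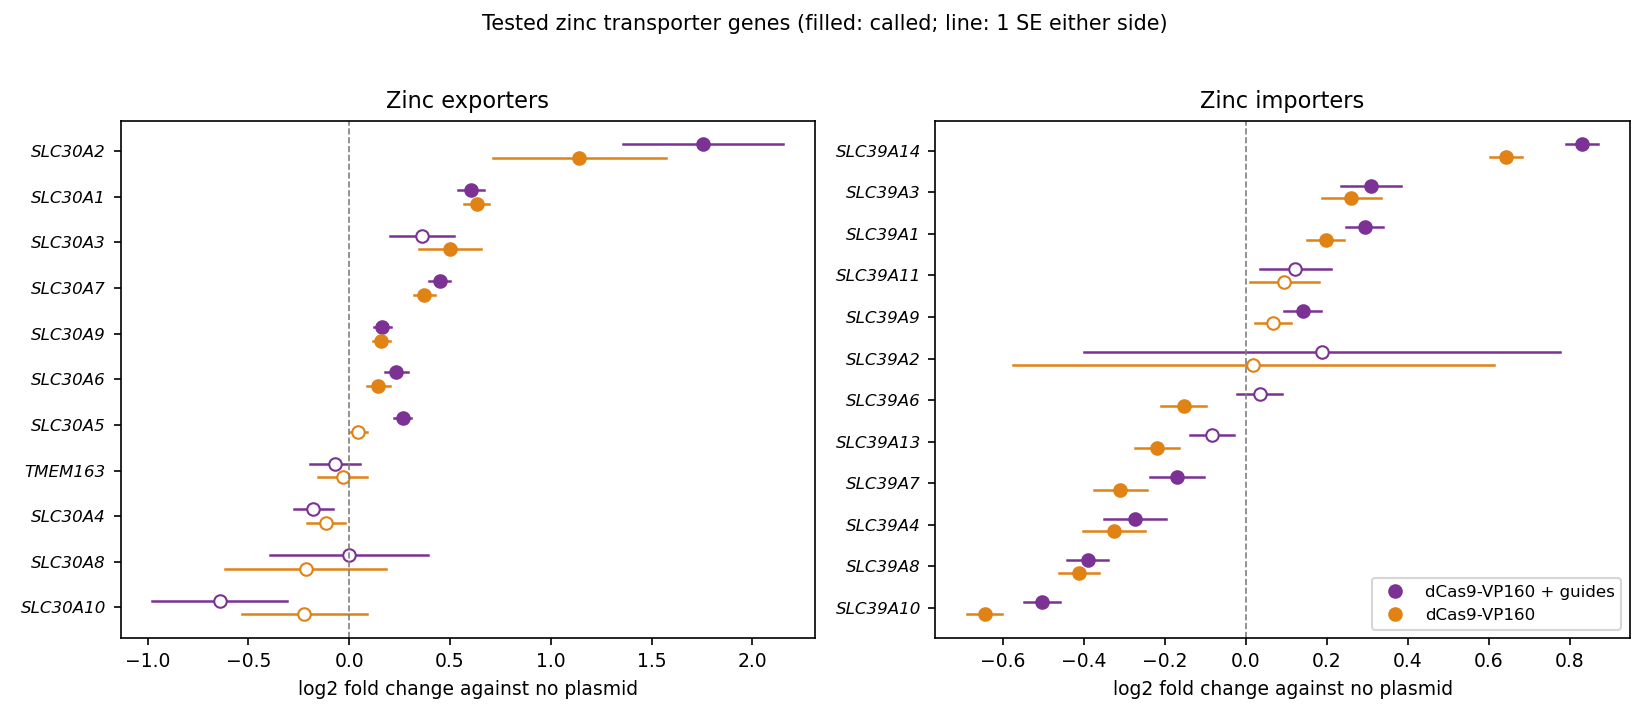
Log2 fold change against no plasmid (horizontal axis) of the tested zinc exporters, SLC30A1 included, and zinc importers, with dCas9-VP160 and guides in purple above dCas9-VP160 alone in orange; filled symbols were called and lines span 1 SE either side. SLC30A1 lies at 0.60 and 0.63, SLC39A14 at 0.83 and 0.64, and SLC39A10 at -0.50 and -0.65.

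Copper handling was looked at because metallothioneins also bind copper. Of 9 tested genes, 4 were called higher and 4 lower with dCas9-VP160 alone against no plasmid, and 3 higher and 3 lower with guides, beside 26.6% and 24.6% of all genes with dCas9-VP160 alone and 26.7% and 25.9% with guides. DESeq2 called 2 higher and 4 lower with dCas9-VP160 alone, and 2 higher and 3 lower with guides. Log2 differences from no plasmid are given for dCas9-VP160 alone and then for guides. SLC31A1, the copper importer of the plasma membrane, was at 0.41 and 0.69 (edgeR adjusted p = 6.98e-08 and 2.81e-12), and at 0.28 between the transfected groups (edgeR adjusted p = 2.96e-04). The copper exporter ATP7B was at -0.63 and -0.66 (edgeR adjusted p = 2.01e-07 and 1.32e-07), the copper chaperone of superoxide dismutase CCS at -0.54 and -0.66 (edgeR adjusted p = 1.04e-07 and 4.69e-09), and the copper chaperone ATOX1 at -0.46 and -0.58 (edgeR adjusted p = 1.39e-06 and 3.83e-08).

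Genes on either side of the metallothionein cluster on chromosome 16 were measured as well, and their differences from the metallothioneins were not tested. Of 9 such genes 6 passed the filter on low counts, and 4 were called higher and 0 lower with dCas9-VP160 alone, 5 higher and 0 lower with guides, against no plasmid, where 26.6% and 26.7% of all genes were called higher and 24.6% and 25.9% lower. Between the transfected groups 2 were called higher and 0 lower, where 4.16% of all genes were called higher and 3.41% lower. The counts of 0 were the same at an unadjusted p under 0.05 in edgeR and in DESeq2. DESeq2 called 4 higher with dCas9-VP160 alone and 4 with guides against no plasmid, and 1 higher between the transfected groups. HERPUD1, a gene of protein degradation at the endoplasmic reticulum, averaged 137 ± 2.57 CPM with guides, 118 ± 0.791 with dCas9-VP160 alone and 65.4 ± 0.373 without plasmid, and OGFOD1, a hydroxylase of a ribosomal protein, 143 ± 11.1, 125 ± 14.9 and 72.6 ± 6.11 CPM in the same order of groups. Their log2 differences from no plasmid were 0.85 and 0.78 with dCas9-VP160 alone and 1.06 and 0.98 with guides (each edgeR adjusted p at most 2.27e-13). Between cells with guides and dCas9-VP160 alone they were higher by 0.22 and 0.20 (edgeR adjusted p = 0.00295 and 0.00618), where MT2A and MT1X were called lower. NUP93, of the nuclear pore, and NUDT21, of messenger RNA cleavage, were at 0.28 and 0.23 with dCas9-VP160 alone and at 0.35 and 0.31 with guides, against no plasmid (edgeR adjusted p at most 4.08e-05).

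The genes whose profile over the 12 libraries lay nearest to that of SLC30A1 were PRKAB1, NOLC1 and LNCOC1, at root mean square distances of 0.0743, 0.0756 and 0.0800 between log2 CPM profiles centred on their means. Their log2 differences from no plasmid were 0.58, 0.62 and 0.66 with dCas9-VP160 alone, beside the 0.63 of SLC30A1. Of 12221 genes compared, 29 lay within 0.1 of SLC30A1, 11 of MTF1, 1 of MT2A and 0 of MT1X. The nearest to MT2A were CUEDC1 at 0.0925, LRRC49 at 0.110 and RING1 at 0.113, and CUEDC1 was also near MT1X, at 0.140, beside TMEM120A at 0.138 and DVL1 at 0.151. For MTF1 they were CDYL2 at 0.0752, SPOPL at 0.0786 and ARL16 at 0.0935. The profiles share libraries and depth, and the distances are a description.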

How the data were processed

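The deposited table used here holds the authors' raw counts of reads, whole numbers for each gene and library. Per the submitters' processing notes, the tools used were Trim Galore 0.3.7, STAR 2.6.0c, Picard 2.17.1 and DESeq2 1.16.1, with genome build hg38. Neither the counting program nor the annotation is given in the sources used here. Per the labels' protocols, RNA was made into libraries from 1 ng with SMART-Seq HT and Nextera XT kits, which do not mark the strand. A deposited table of the authors' own comparisons was not used here.

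Of 60604 gene identifiers, 56812 were found in GENCODE v29 (GRCh38), which gave coordinates, exons and coding sequences. Promoters came from RefSeq on GRCh38.p14. The 92 spike-in sequences took 0.719% and 0.404% of counts in technical replicates 1 and 2 of experiment 1 without plasmid. They took at most 0.00818% in any other library, and were left out of library sizes. Why these control libraries differed was not tested. In experiment 1, any difference in their handling cannot be told apart from the lack of plasmid.

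Technical replicates were summed to 6 libraries, with n = 2 experiments per group. The labels describe the experiments as separate batches of cells, so the experiment was a block, and differences between experiments correlated at 0.616 to 0.631 between groups over 12875 genes. The test was the robust quasi-likelihood fit of edgeR 4.0.16 (R 4.3.3) after filterByExpr and TMM, with Benjamini-Hochberg adjustment over all 19662 genes. The fit had 2 residual degrees of freedom and a median prior of 24.0. Each SE is approximate, the size of the log2 fold change over the square root of its F statistic, and a prior count of 2 entered the values of single experiments. The scripts were tested on simulated data. DESeq2 1.42.0 was 1 of 16 alternatives. The difference between experiments was tested by an interaction term on the 12 libraries, whose spread is technical.

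The 8 genes and the gene lists were chosen with earlier results of these data known. List genes named are, per comparison, at most the 4 called genes with the largest change and a mean of at least 1 CPM, and like profiles are the 3 nearest genes of at least 5 CPM.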

Additional observations from a re-analysis of the deposited data

Results flagged for a closer look

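MT1E had 1 count, or 0.109 CPM, in technical replicate 1 of experiment 2 with dCas9-VP160 alone, and 0 in the other 3 libraries of that group and in all 8 of the other groups. It is listed because a single value above 0 always stands apart from values of 0. The level is below the 0.251 to 0.444 CPM that 0 counts allow in a library, so it is no difference between libraries. None of the other 15 sets of 4 libraries of 1 group and gene held such a value, and chance alone marks about 1 in 20 sets.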

How the results depend on the processing

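SLC30A1 kept its direction and its call in 16 of 16 alternatives in both comparisons with no plasmid. MT2A was called in 11 and MT1X in 9 of 16 with dCas9-VP160 against no plasmid, and in 10 and 8 of 16 with guides against dCas9-VP160. Where a value changed, the cause was not tested beyond what the setting itself removes.

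Against no plasmid, dCas9-VP160 had 3417 genes higher and 2757 lower with DESeq2, and 3036 and 2528 with no replicate block in edgeR. Of the 5 tested members, 1 was then called higher under either setting, as in technical replicate 1 alone and in experiment 2 alone. With guides against no plasmid, 3229 genes were higher and 2869 lower with no replicate block, 2929 were lower with DESeq2, and 2 members were called lower in technical replicate 1 alone. With guides against dCas9-VP160, the genes called higher numbered 270 with DESeq2, 1 with no replicate block, 456 and 255 in technical replicates 1 and 2 alone, and 240 and 153 in experiments 1 and 2 alone. Those called lower numbered 90, 0, 336, 162, 206 and 139 in the same order, and without the block 782 were lower at an unadjusted p under 0.05. Without the block, at most 1 of SLC30A5, SLC39A14, SLC39A6, SLC31A1, HERPUD1 and OGFOD1 can thus have stayed called higher. Of the members, 0 were called lower in that comparison with DESeq2, with no replicate block, in technical replicate 2 alone and in experiment 2 alone, and 1 in technical replicate 1 alone, in experiment 1 alone and with the 12 libraries as units. At an unadjusted p under 0.05, DESeq2 and the edgeR fit without the block each found 2 members lower.

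Among log2 differences that changed sign, MT1X was at -0.077 in technical replicate 1 alone and MTF1 at -0.073 in experiment 1 alone, with dCas9-VP160 against no plasmid. With guides against no plasmid, technical replicate 2 alone gave 0.16 for MT1X, 0.18 for MT2A and -0.025 for MT1F, technical replicate 1 alone -0.021 for MTF1, experiment 1 alone 0.045 for MT2A and -0.099 for MTF1, and experiment 2 alone -0.16 for MT1F. With guides against dCas9-VP160, MTF1 was at -0.032 in technical replicate 1 alone and -0.026 in experiment 1 alone, and SLC30A1 at 0.066 in technical replicate 2 alone and 0.076 in experiment 1 alone.

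Leaving out 1 experiment of 1 group, where the lone library is assumed to vary like the others, gave 1 to 3 members called higher by dCas9-VP160 against no plasmid, the 1 being reached without experiment 1 of the no plasmid group. With guides against dCas9-VP160 it gave 1 to 2 members lower, 279 to 1124 genes higher and 204 to 945 lower, with the lowest counts without experiment 1 of the group with guides. The log2 difference of MTF1 was -0.076 to 0.23 with dCas9-VP160 and -0.062 to 0.24 with guides against no plasmid, and -0.092 to 0.12 between the transfected groups. MT1F was at -0.12 to 0.19 and MT2A at -0.17 to 0.034 with guides against no plasmid. Between the transfected groups MT1F was at -0.27 to 0.035 and SLC30A1 at -0.12 to 0.073. In fits of 1 experiment or of the 12 libraries the spread is technical, and depth limits MT1F, MT1E, MT1G and MT1M.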
